A study of Mus musculus with 2 samples.

Results

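Mir139 is 1 of the 2202 microRNA genes counted in left cerebral cortex of mice at 10 days of age. It was picked by name as a gene known from these counts to be very abundant, so its level is given as a description, with no test. Its gene identifier (ENSMUSG00000065446.1) matched a single row of each count table. The samples were 2 libraries of total RNA, selected for short RNA, from the left cerebral cortex of female B6CASTF1/J mice, F1 offspring of C57BL/6J, a common laboratory strain, and CAST/EiJ, which derives from wild mice, at that age. The labels name no engineered allele and no agent, and both libraries form 1 group, so there is no treated or control group to compare. The labels number the females separately as biological replicates (here animal 1 and animal 2) but give both the same donor entry. Nothing else in the labels shows that they were independent, and every comparison below sets 1 library against the other.

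MicroRNAs are cut from hairpin-shaped transcripts in the nucleus and then in the cytoplasm, which leaves a short duplex with a 5′ and a 3′ arm. The retained arm guides Argonaute proteins to messenger RNAs that pair with its seed, the bases near its 5′ end, and those messengers are repressed. Mir139 lies within Pde2a, which encodes a cyclic nucleotide phosphodiesterase stimulated by cGMP and abundant in forebrain neurons. A microRNA within an intron of a gene on the same strand can be cut from that gene's own transcript.

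The Mir139 arms are shown with those of the leading let-7 genes and Mir127, because these genes have the nearest levels and the sequences show which of them could share targets. The sequences are those of RefSeq (GRCm38.p6), written 5′ to 3′, and capitals mark the seed, bases 2 to 8.
miR-139-5p: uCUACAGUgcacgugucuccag
miR-139-3p: uGGAGACGcggcccuguuggag
let-7b-5p: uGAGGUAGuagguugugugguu
let-7i-5p: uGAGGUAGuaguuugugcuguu
let-7g-5p: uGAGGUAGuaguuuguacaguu
miR-127-3p: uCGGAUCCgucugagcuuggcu

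The let-7 arms carry a common seed, while both Mir139 seeds stood alone. Among 1738 mature arms in the RefSeq table, 0 other genes had the seed CUACAGU and 0 had GGAGACG. A seed held by a single gene was common, at 84.5% of the 1398 distinct seeds. With the shorter match of bases 2 to 7, 1 other gene, Mir6397, matched the 3p arm, and 0 matched the 5p arm. Mir6397 had 0 reads in both animals, which allows up to 0.788 CPM (reads scaled to the usual common total of counted reads) in animal 1 and 1.15 in animal 2. These limits, and all intervals on reads below, cover counting error only, since the tables show no molecular identifiers.

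The whole Mir139 hairpin is printed here to show where the arms lie, with the arms in capitals.
Mir139 hairpin: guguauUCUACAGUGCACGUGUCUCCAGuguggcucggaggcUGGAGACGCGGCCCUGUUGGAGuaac

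It is 68 bases long, with the 5p arm at bases 7 to 28, the 3p arm at bases 43 to 64 and 14 bases between them. The counts are per hairpin gene, so how the reads divide between the arms was not measured. In the lowest-energy structure predicted by RNAfold, 20 of the 22 bases of the 5p arm were paired, 19 of them to the 3p arm. The predicted energy was -35.6 kcal/mol, or -0.524 per base, against a median of -0.405 over the 968 table genes matched by symbol to a RefSeq hairpin. A lower energy per base was predicted for 11.9% of these hairpins. G and C made up 58.8% of the hairpin, against a median of 51.7%, and 68.2% of the 3p arm against 54.5% of the 5p arm.

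The sequence is also distinct, which bears on whether reads can be placed at a single position. None of the 53 windows of 16 bases in the hairpin, read on either strand, occurs in any of 1004 other RefSeq hairpins (0 hits), while 20.7% of the 968 matched hairpins share such a run with another one. Among 141767 GENCODE M21 transcripts, other than Mir139 itself, transcripts of 2 genes, Pkd2l1 and Prdm12, hold such a run. The whole genome was not searched.

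The hairpin lies at chr7:101475376-101475443 on the plus strand (mm10). It is intronic in 2 overlapping coding genes annotated on the same strand, Pde2a (101421691 to 101512827) and Gm45837 (101410886 to 101512819). Of 12 annotated Pde2a transcripts, 10 span the hairpin, and all 10 have it in an intron. The 4 coding ones among them share an intron of 29902 bases (101451469 to 101481370), the second of each transcript. There the hairpin starts 23907 bases after the upstream exon and ends 5927 bases before the downstream exon. The single Gm45837 transcript has it in the third intron, of 19829 bases (101461542 to 101481370), since that transcript has an exon nearer upstream. The same shorter intron holds it in Pde2a-206, Pde2a-207, Pde2a-209 and Pde2a-210, which are not annotated as coding. Downstream of the hairpin, 27 of the 29 exons of the Gm45837 transcript are identical to exons of Pde2a-201, so the annotation alone does not tell which precursor yields the microRNA, and host transcripts were not measured.

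**Figure D1:**
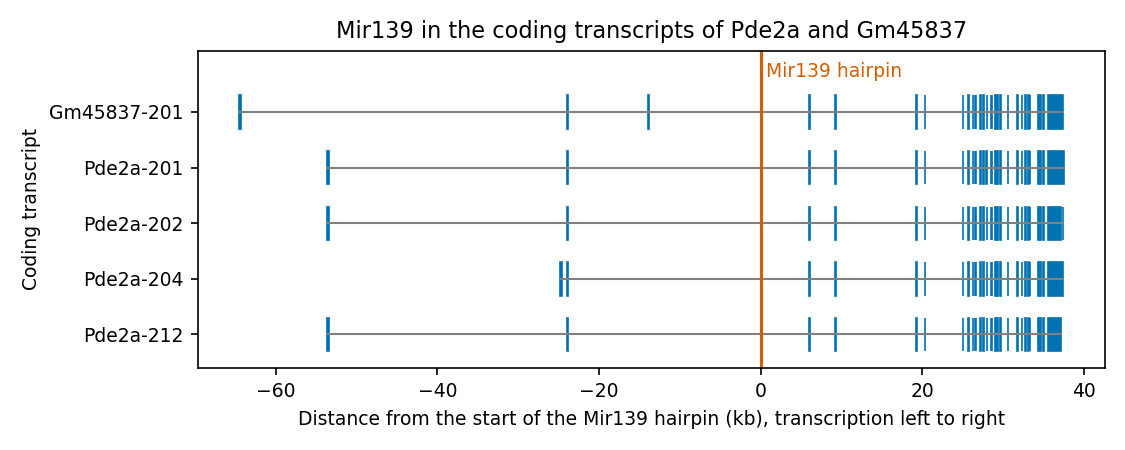
Exons (blue bars) of the 5 coding transcripts that span Mir139, by distance in kb from the start of the hairpin (orange line). In each transcript the hairpin falls in a long intron that is early in exon order (intron 2 or 3), and most exons lie downstream of it. By distance it lies nearer the 3′ end of the transcript in all of them except Pde2a-204.

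In animal 1, 273073 own-strand reads were from Mir139, of 3806078 counted to any microRNA gene, or 7.17% (exact Clopper-Pearson 95% interval 7.15 to 7.20). In animal 2 it had 202873 of 2602935, or 7.79% (7.76 to 7.83). The mean share was 7.48% ± 0.438 (SD, n = 2). About 1 counted read in 13.9 in animal 1 and 1 in 12.8 in animal 2 was from this gene. The intervals do not overlap, so at this depth the spread between the libraries, not counting error, limits the value. A difference between the animals cannot be told apart from one in the handling of the libraries. In CPM the levels were 71747 and 77940, a mean of 74843 ± 4379 (SD, n = 2). The median gene with any read stood at 7.09 CPM in animal 1 and 7.11 in animal 2.

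The weight of this gene in the libraries can also be given against the least abundant genes. In animal 1 the 2113 lowest of the 2202 genes had 271534 reads together, fewer than Mir139 alone. In animal 2 the 2127 lowest genes had 201294 reads together, also fewer than Mir139.

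All of these reads lay on the strand of the hairpin. Mir139 had 0 reads in the opposite-strand column in both animals, which allows at most 0.00110% of its own-strand number in animal 1 and 0.00148% in animal 2. Its unstranded count equalled its own-strand count in both animals, as for 80 of the 92 genes with at least 1000 CPM in both. Of these 92 genes, 87 had no opposite-strand reads, so this was the usual case.

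By mean CPM, Mir139 came after Mirlet7b and before Mirlet7i, Mirlet7g, Mir127 and Mir770, so only 1 gene stood above it among reads counted to a gene. That order leaves out reads that fit several positions, which were 42.7% of all reads in animal 1 and 40.4% in animal 2, more than the 33.5 and 30.4% that were counted. Genes with identical copies elsewhere may therefore stand too low in it, and their true place relative to Mir139 was not measured. Mir139 was rank 1 in animal 1 and rank 3 in animal 2. Let-7 microRNAs rise as tissues mature and target messengers of growth and stemness. Mirlet7b held 6.69% in animal 1 and 8.78% in animal 2, a range that encloses both Mir139 values. Mirlet7i held 6.29 and 8.06%, which also encloses them. The order of Mir139, Mirlet7b and Mirlet7i is therefore within the spread between the libraries. Mirlet7g held 5.48 and 7.08%, and its range ends just below the lower Mir139 value of 7.17%. Mir127, an imprinted microRNA antisense to Rtl1, held 4.52 and 4.36%, and Mir770, from the imprinted Meg3 locus, 3.68 and 4.19%. Both were below Mir139 in each animal, with 1.59 Mir139 reads per Mir127 read in animal 1 and 1.79 in animal 2.

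**Figure D2:**
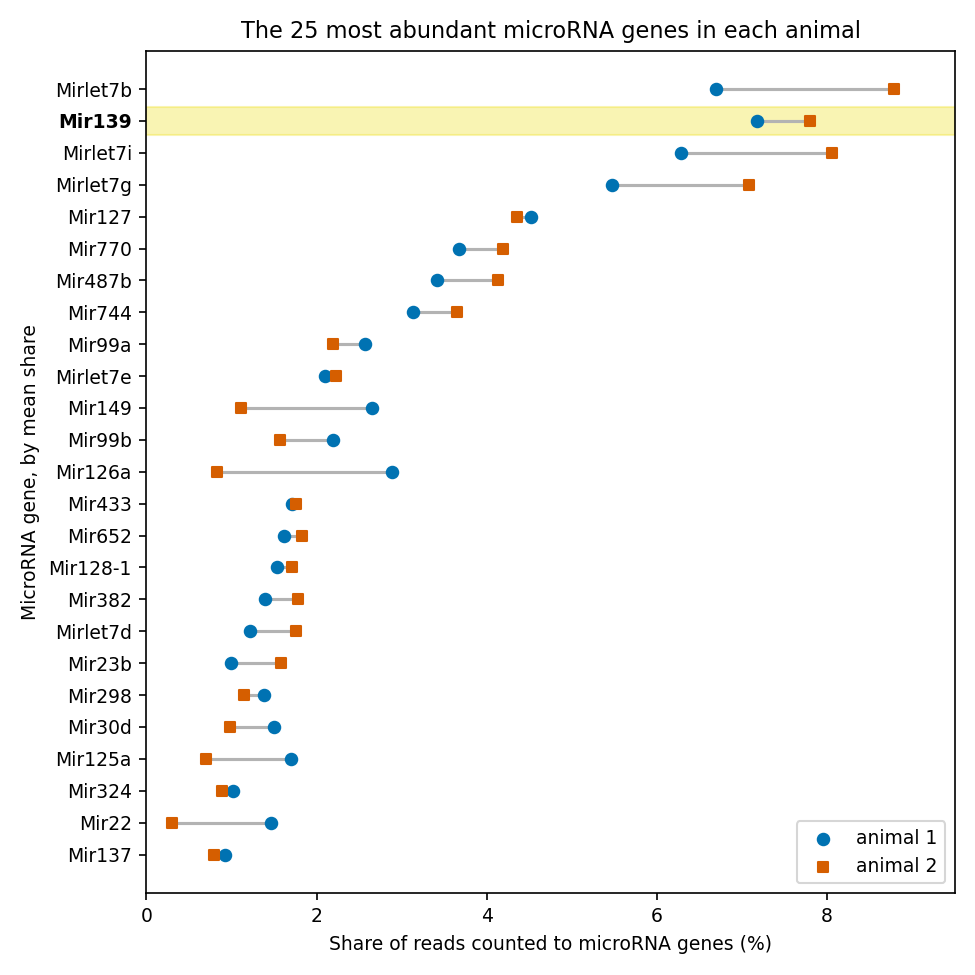
Share of counted reads (%) of the 25 genes with the highest mean share, in animal 1 (circles) and animal 2 (squares), joined by a line. Mir139 (7.17 and 7.79%, shaded) lies within the ranges of Mirlet7b and Mirlet7i and above both values of every gene from Mirlet7g down.

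Outside the let-7 family Mir139 had the most counted reads in both animals, with the same limit for genes that have several copies. The 12 let-7 genes, Mir98 among them, held 22.5% of counted reads in animal 1 and 28.7% in animal 2. Without those reads, Mir139 held 9.25% of the rest in animal 1 and 10.9% in animal 2, a mean of 10.1% ± 1.19 (SD, n = 2). The 1018 genes matched by symbol to RefSeq arms were also joined by shared seed, with all reads of a gene given to each of its seeds. The group with the seed GAGGUAG had 13 of these genes and held 25.6% ± 4.42 of counted reads. Mirlet7a-2, which is counted among the let-7 genes above, is not in that group. Mir139 held its 7.48% from a single locus.

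Mir139 also led the genes of its chromosome, which adds no separate support, because it was picked as very abundant. The 153 microRNA genes of chromosome 7 together held 8.72% of counted reads in animal 1 and 9.13% in animal 2, and Mir139 supplied 82.3% and 85.4% of those. Next on the chromosome was Mir330, with 1 read per 9.38 Mir139 reads in animal 1 and per 11.8 in animal 2. The nearest other microRNA gene in the table lies 406 kb away, and the neighbours on both sides had far fewer reads. Mir3102 lies 593 kb upstream on the other strand and stood at 285 CPM in animal 1 and 217 in animal 2. Mir326, in an intron of the beta-arrestin gene Arrb1, lies 1923 kb upstream and stood at 826 and 425 CPM. Downstream, Gm22655 at 406 kb and Gm25171 at 1785 kb had 0 reads in both animals.

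MicroRNAs in an intron of a coding gene on the same strand are the class to which Mir139 belongs by position. This class had 733 genes in the table, of which 113 reached 10 CPM in both animals, and it held 36.8% of counted reads in animal 1 and 38.2% in animal 2. Mir139 supplied 19.5% of the class in animal 1 and 20.4% in animal 2, more than any other member in each. It was followed by Mirlet7g in Wdr82, a gene for a histone methyltransferase subunit, at 6.28% ± 1.13 of all counted reads (SD, n = 2). Next came Mir744 in the kinase gene Map2k4 at 3.39% ± 0.367, and Mirlet7e in Spaca6 at 2.17% ± 0.0932. Mir149 in Gpc1, which encodes a heparan sulfate proteoglycan, followed with unlike values of 2.65% in animal 1 and 1.11% in animal 2.

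A list of 11 microRNAs with host genes known from neurons was set beside Mir139. Together they held 4.96% of counted reads in animal 1 and 3.58% in animal 2, so Mir139 alone had 1.45 and 2.18 times the reads of the whole list. Of the 11, 10 lie in an intron by this annotation, and Mir592 overlaps an exon of Grm8. The number of Mir139 reads per read of a list gene does not depend on how libraries are scaled, and for 3 genes it was nearly the same in both animals. For Mir128-2, in the gene of the cAMP-regulated phosphoprotein Arpp21, it was 12.7 in animal 1 and 12.8 in animal 2. For Mir128-1, in R3hdm1, it was 4.69 and 4.55, and for Mir338, in the kinase gene Aatk, 119 and 117. Mir338 is also among the oligodendrocyte markers used below. So near a match was not particular to the list, since for Mir132, outside it, the number was 11.0 in animal 1 and 11.2 in animal 2. Mir128-1 and Mir128-2 have the same 3p arm in RefSeq, and reads that fit several positions are listed apart from the genes, so the ratios for these genes may be too high.

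For the other list genes the number differed more between the animals or rests on few reads. For Mir149 it was 2.71 in animal 1 and 7.03 in animal 2. For Mir346, in the delta glutamate receptor gene Grid1, it was 90.7 and 306, and for Mir592, in the metabotropic glutamate receptor gene Grm8, 1034 and 3439. For Mir504, in Fgf13, it was 1152 and 2818, and for Mir153, in Ptprn2, 615 and 1004. For Mir488, in the neuronal migration gene Astn1, it was 168 and 211. For Mir218-2 and Mir218-1, in the axon guidance genes Slit3 and Slit2, it was 1172 and 1449, and 9102 and 8115. Mir218-2 had 233 and 140 reads and Mir218-1 only 30 and 25, and the 95% counting intervals of their own log2 ratios between the libraries (-0.32 to 0.30 and -1.30 to 0.34) contain that of Mir139 (-0.32), so neither is shown to differ from it.

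**Figure D3:**
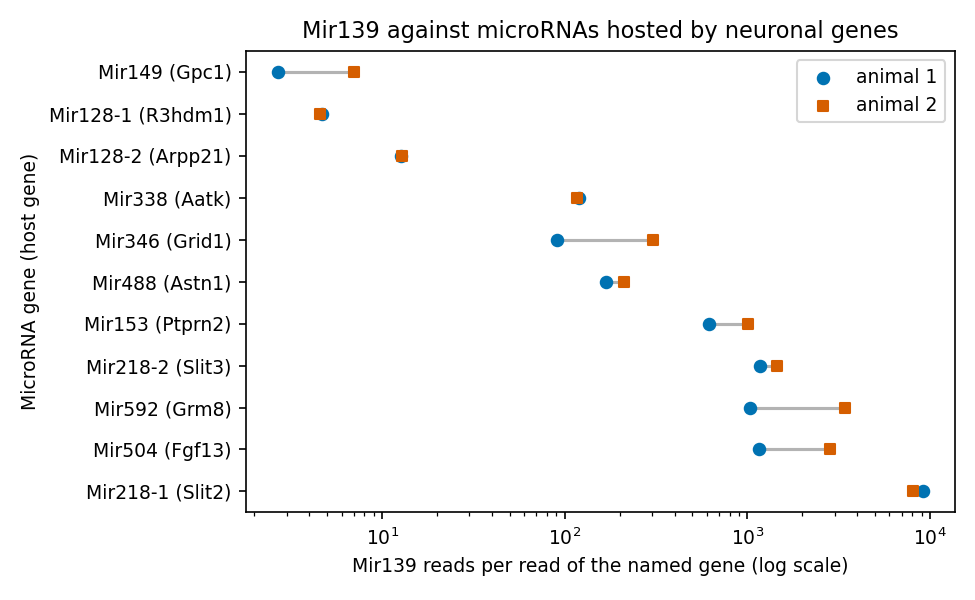
Mir139 reads per read of each listed microRNA (log axis), with the host gene in brackets, in animal 1 (circles) and animal 2 (squares). The values for Mir128-1, Mir128-2 and Mir338 nearly coincide, while those for Mir149, Mir346, Mir592 and Mir504 lie apart, higher in animal 2.

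The libraries were then compared with each other after TMM scaling, which equalises the bulk of genes between libraries. Mir139 was 1.25-fold higher in animal 2, a log2 ratio of animal 1 over animal 2 of -0.32 (exact 95% interval -0.33 to -0.31). The exact conditional binomial test called it different between these 2 libraries, with a log10 of the Benjamini-Hochberg adjusted p of -1248. At such counts the test passes for small differences: it called 51.6% of all 531 tested genes, 24.7% as higher in animal 2 and 26.9% as higher in animal 1, and 90.2% of the 92 genes with at least 1000 CPM in both animals. The call therefore says little about Mir139 itself, and with 1 library per animal it has no replicate check. The median log2 ratio was 0.04 over all tested genes and -0.22 over the 92 abundant ones.

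The direction of this difference depended on what the libraries were scaled to. The log2 ratio was -0.12 with the totals of counted reads, -0.37 with DESeq2 size factors and -0.54 with upper quartile scaling. As a share of all reads in the table, Mir139 had 2.41% in animal 1 and 2.37% in animal 2, so with all reads as library size the ratio was 0.02 and animal 1 was higher. That denominator includes the unmapped reads, 17.9% of all reads in animal 1 and 23.5% in animal 2. As a share of mapped reads it had 2.93% and 3.10%, a log2 ratio of -0.08.

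**Figure D4:**
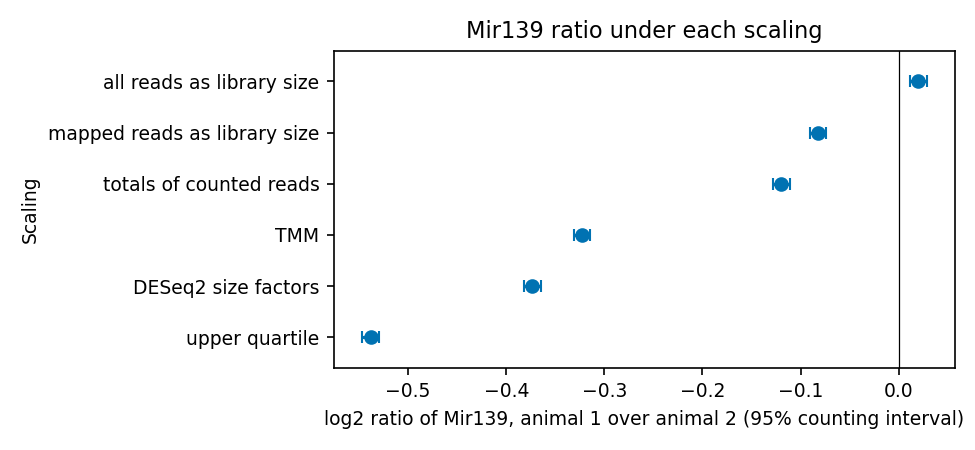
Log2 ratio of Mir139, animal 1 over animal 2, under 6 scalings, with exact 95% counting intervals. Values run from -0.54 with upper quartile scaling to 0.02 with all reads as library size, and the interval of only the last lies above 0.

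Among abundant genes Mir139 was one of the steadier between the libraries. Its coefficient of variation of the share of counted reads was 5.85% (n = 2), against a median of 12.5% over the 92 abundant genes, of which 19 had a smaller one. Among the 25 most abundant genes 3 had a smaller one, and the range was 1.79 to 93.8%. After TMM its place was closer to the middle, with 39 of the 92 genes having a smaller absolute log2 ratio.

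The 5 abundant genes with the TMM log2 ratio nearest to that of Mir139 were Mir181b-2 (-0.32), Mir191 (-0.33), Mir128-2 (-0.31), Mir134 (-0.31) and Mir132 (-0.30). This likeness is over 2 animals only, so it rests on a single difference, and the genes were chosen by it. Mir132 is transcribed in response to neuronal activity, and Mir134 comes from the imprinted Dlk1-Dio3 region. Mir191 is known from the Dalrd3 locus, although the host annotation used here gave it no coding host gene. Mir181b-2 shares its 5p arm with Mir181b-1, so its count may miss reads that fit both. Per Mir132 read there were 11.0 Mir139 reads in animal 1 and 11.2 in animal 2.

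**Figure D5:**
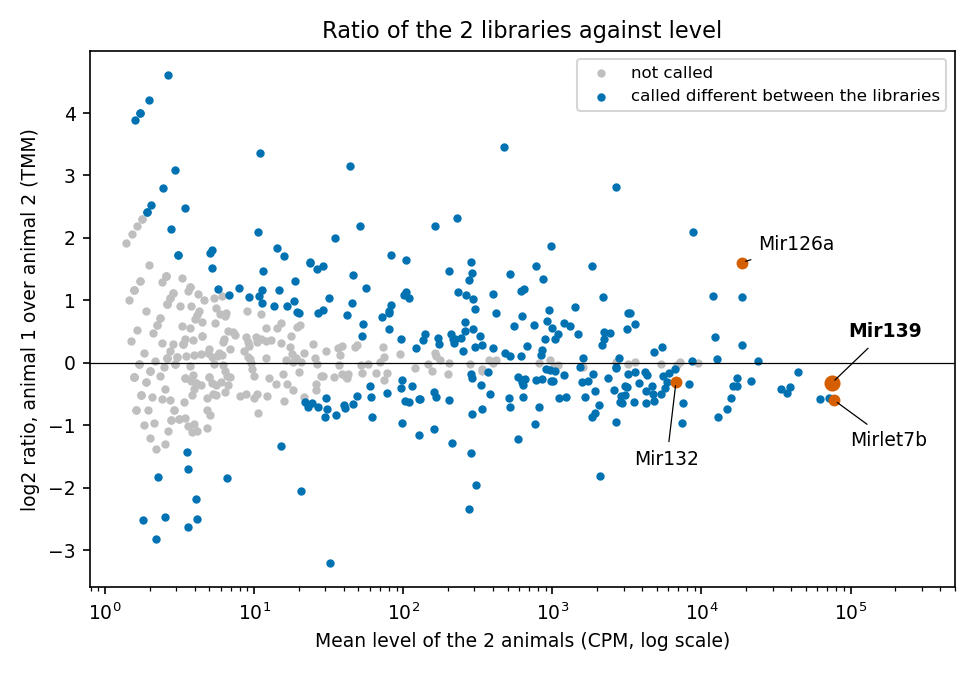
Log2 ratio of animal 1 over animal 2 after TMM against mean level (CPM, log axis) for the 531 tested genes, with genes called by the exact binomial test in blue. Mir139 (-0.32) lies at the far right near Mirlet7b (-0.60), level with Mir132 (-0.30) and well below Mir126a (1.60).

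Markers of the cells in the tissue were counted beside these values. All 7 listed neuronal genes had reads in both animals and summed to 36730 CPM in animal 1 and 38071 in animal 2, which is 1.95 and 2.05 Mir139 reads per read of the list. Of these, Mir124a-1, Mir124a-2 and Mir124a-3, the copies of the best known neuronal microRNA, had at most 13 reads each, and as copies of one another they too may miss reads that fit several positions. The rest of the neuronal list did not move together. Mir128-1, Mir128-2 and Mir132 had more CPM in animal 2, while Mir137 had fewer, with 9278 CPM in animal 1 and 7888 in animal 2. Endothelial Mir126a stood at 28913 CPM in animal 1 and 8265 in animal 2, so there were 2.48 and 9.43 Mir139 reads per Mir126a read. The oligodendrocyte pair summed to 1167 and 1639 CPM, the smooth muscle and pericyte pair to 3146 and 4524, the 4 blood and microglial genes to 837 and 1151, and the 3 red blood cell genes to 78.0 and 46.5. Choroid plexus Mir204 stood at 865 and 751 CPM and liver Mir122 at 42.6 and 41.9. Among striated muscle genes Mir1a-1, Mir1a-2 and Mir133a-1 had 0 reads in both animals, and Mir206 stood at 20.8 and 28.0 CPM. The part of these cell types in the Mir139 difference was not tested, and in whole tissue a change in the number of cells cannot be told apart from a change in RNA per cell.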

How the data were processed

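The authors deposited whole-number read counts per microRNA hairpin gene, 1 table for each of the 2 libraries, with columns for both strands, the own strand and the opposite strand. Per the file notes, the build was mm10 and the annotation GENCODE M21; aligner and counter: not given in the sources used here. The 4 summary rows (unmapped, several positions, no gene, ambiguous) were left out of library sizes; counted reads were 33.5% and 30.4% of all reads, and reads fitting several positions 42.7% and 40.4%.

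Symbols and host genes came from GENCODE M21, which held all 2202 identifiers, and sequences from RefSeq GRCm38.p6. Own-strand counts were used. TMM and upper quartile factors came from edgeR 4.0.16 and size factors from DESeq2 1.42.0 (R 4.3.3). The 531 genes with at least 10 counts over both libraries were compared by a two-sided exact conditional binomial test given TMM library sizes, with 0.5 added to counts in log2 ratios, Benjamini-Hochberg adjustment and a threshold of 0.05. With a single group, no quasi-likelihood test could be made. Python 3.11.15, scipy 1.17.1 and RNAfold 2.7.2 were used. On simulated counts with counting noise only (513 genes tested), the test called 41.7% of genes changed 1.5-fold, 59.2% at 2-fold, 75.5% at 3-fold, 93.9% at 5-fold and 0.629% of unchanged genes.

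Named genes were Mir139, up to 4 genes above and below it by mean CPM, the 5 genes at 1000 CPM or more in both libraries with the nearest TMM log2 ratio, the 2 nearest microRNA genes on each side, genes sharing a seed, the 11 neuronal host genes' microRNAs, and the 4 most abundant other intronic genes. Mir330 and Mir6397 were singled out after their values were seen. The gene and the lists were chosen with earlier results of these data known.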

Additional observations from a re-analysis of the deposited data

How the results depend on the processing

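The share of counted reads held by Mir139 (7.48%) was 8.05% with the unstranded column, 2.39% over all reads and 10.1% without the let-7 family, because each changes the denominator. Leaving out each animal gave 7.17 to 7.79% and rank 1 to 3. Its log2 ratio kept its sign and its call under 8 of 9 alternatives, the lowest being -0.54 with upper quartile scaling. It reversed with all reads as library size (0.020, exact 95% interval 0.01 to 0.03). Among the 8, adding 0 or 5 to each count could not move the ratio at such counts (-0.32 with each), so these settings do not bear on the sign. The scalings to all reads and to mapped reads were chosen after seeing the data. With TMM 274 of 531 tested genes were called, and over 7 alternatives the number ranged from 249 to 295. The genes tested changed too: the lowest was 249 of 507 with the unstranded column and the highest 295 of 531 with all reads. Without the filter on low counts 265 of 770 were called, a lower share. The split moved with scaling: 143 genes were higher in animal 1 and 131 in animal 2 with TMM, 189 and 91 with counted totals, 102 and 172 with upper quartile factors, 203 and 86 with mapped reads, and 227 and 68 with all reads. No paired analysis was possible because the labels give a single group. With 2 libraries the spread rests on a single difference, and depth does not limit the Mir139 values.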
